A study of Mus musculus with 6 samples.

Results

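The genes described here encode the matrix metalloproteases (MMPs), the ADAMTS proteases, the ADAMTS-like proteins and the tissue inhibitors of metalloproteases (TIMPs). They were taken by symbol from the deposited gene table, as the genes that the authors kept as expressed and whose symbols begin with Mmp, Adamts, Adamtsl or Timp followed by a digit. Of 51 such symbols, 37 were kept, namely 11 Mmp, 18 Adamts, 5 Adamtsl and 3 Timp genes, out of 16911 kept genes in all. RNA was sequenced from whole testes of 3 Tardbp cKO mice and 3 WT mice of strain C57BL/6 at postnatal day 12 (PND12), 1 stranded poly(A) library per mouse. The study describes its cKO mice as carrying 1 floxed and 1 null Tardbp allele with Stra8-iCre, which acts in male germ cells, so that Sertoli and other somatic cells keep the floxed allele intact while the null allele is present in every cell. The WT mice of these libraries carried neither the floxed allele nor Cre. Each mouse is 1 biological sample, but by the labels batch 2 held cKO 1 with all WT libraries, and batch 1 held cKO 2 and cKO 3 alone.

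MMPs and ADAMTS proteins are zinc-dependent proteases that cut proteins of the extracellular matrix. MMPs are made as inactive precursors, and some are secreted while the membrane-type MMPs stay on the cell surface. ADAMTS proteases carry thrombospondin type 1 repeats and include enzymes that cut large proteoglycans and enzymes that trim procollagens. ADAMTS-like proteins share those repeats but lack the protease domain, and several bind fibrillin microfibrils. TIMPs bind the active site of MMPs and block it, and TIMP2 also helps MMP14 to activate pro-MMP2. In the testis, Sertoli cells and peritubular cells are known to secrete MMP2 and TIMPs, and these proteases act on the basement membrane and on the junctions between Sertoli cells that germ cells must cross.

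Total counts were 31713911 to 43371284 in cKO libraries and 30028685 to 33099581 in WT libraries. Tardbp itself had 8.0, 6.81 and 7.10 log2 CPM (the deposited log2 counts, scaled to library size by TMM) in cKO 1, cKO 2 and cKO 3, against 8.32, 8.38 and 8.29 in WT 1, WT 2 and WT 3, so that cKO 1 lay closest to WT. Its log2 fold change was -0.33 in the edgeR fit with a batch term (adjusted p = 0.107) and -0.94 in the fit with none (adjusted p = 0.0416). All 8 cell type lists used here were detected in every library. The summed level of 10 spermatocyte markers was 340.5, 144 and 63.0 CPM in cKO 1, cKO 2 and cKO 3, against 1501 to 2017 CPM in WT. All 10 of them fell in edgeR. The 12 Sertoli cell markers summed to 7717, 13058 and 13980 CPM in the cKO libraries, against 5214 to 5921 CPM in WT. Most of each sum came from Clu, at 4560, 8671 and 9274 CPM in cKO and 3225 to 3618 CPM in WT. Of the 12 markers 8 rose while 2 fell. The 2 that fell, Rhox5 and Gata1, were below WT in cKO 1 only. With no batch term edgeR called 8 of the 12 higher and none lower (adjusted p = 0.730 for Rhox5 and 0.883 for Gata1). Both fits called 7 of the 12 higher. Kitl rose only with the batch term (edgeR adjusted p = 0.334 with none). It had 8.93, 8.20 and 8.49 log2 CPM in cKO and 8.13 to 8.45 in WT. Fshr rose only in the fit with no batch term (edgeR adjusted p = 0.0365). The 7 interstitial mesenchymal markers summed to 1221, 1036 and 1628 CPM in cKO, against 701 to 815 CPM in WT, and 2 rose. The 7 peritubular myoid markers summed to 1024 to 1273 CPM in cKO and 1074 to 1259 CPM in WT, and with the batch term none passed by edgeR in either direction (none at an unadjusted p under 0.05). With no batch term 1 of them, Cnn1, fell (log2 fold change -0.77, adjusted p = 0.0320). In whole testis RNA, a change in the number of cells of a type and a change of RNA per cell cannot be told apart. The part of these shifts in the values below was not tested. WT 1 stood apart from WT 2 and WT 3 in the collagen gene Col1a1, with 8.71 log2 CPM against 10.1 and 10.2, and it was the lowest of the 3 WT libraries in 25 of the 37 genes (67.6%) and in 35.3% of all genes tested.

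**Figure D1:**
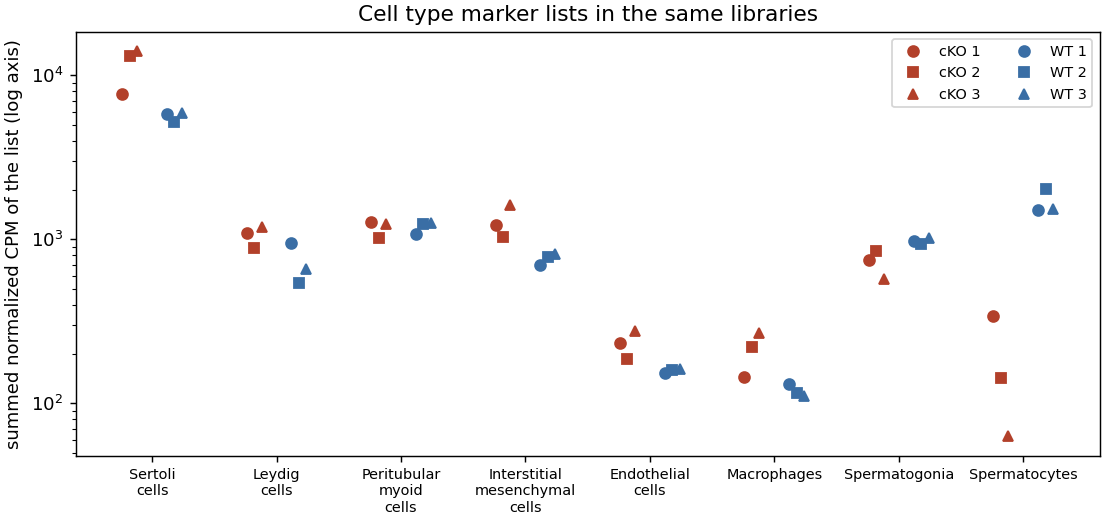
Summed normalized CPM (log axis) of 8 cell type marker lists in each library, with cKO libraries left of WT libraries. The 10 spermatocyte markers lie at 340.5, 144 and 63.0 CPM in cKO, below all WT libraries, and the Sertoli, mesenchymal, endothelial and macrophage sums of all cKO libraries lie above those of all WT libraries.

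With all 6 libraries, every gene of the 37 that passed a test was higher in cKO testes. Among the 37 genes, 7 rose in cKO testes and none fell by the edgeR quasi-likelihood test with a batch term, at an adjusted p of 0.05 over 16632 genes. The 7 were Mmp11, Mmp14 and Mmp15, Adamts1, Adamts7 and Adamts10, and Adamtsl4. In GRCm39 they lie at chr10:75759055-75772330 (Mmp11), chr14:54668878-54682821 (Mmp14), chr8:96078895-96101708 (Mmp15), chr16:85590579-85600009 (Adamts1), chr9:90045062-90090124 (Adamts7), chr17:33742987-33772758 (Adamts10) and chr3:95583509-95595231 (Adamtsl4). They are 18.9% of the 37 genes, where 6.91% of all genes tested were called higher and 9.24% lower. The median log2FC, the log2 fold change of cKO over WT, was 0.59 over the 37 genes and 0.0061 over all genes tested, and 36 of the 37 had a value above 0. At an unadjusted p under 0.05, 11 of the 37 genes were higher and none was lower, where 16.5% of all genes were higher and 18.8% lower. DESeq2 called 9 of the 37 higher and none lower, and 10.8% of the genes it tested higher and 14.4% lower. With the batch term, the fold change compares cKO 1 with the WT mice, because no WT library belongs to batch 1.

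The fit without the batch term, which uses all cKO mice, called 16 of the 37 genes higher (43.2%) and none lower by edgeR, with 19 higher and none lower at an unadjusted p under 0.05. Over all genes that fit called 17.1% higher and 16.7% lower, and 4152 of the 16632 genes were higher and 3888 lower at an unadjusted p under 0.05. The 7 genes named above passed in both models. Every cKO library lay above every WT library in 20 of the 37 genes (54.1%), and in none did every one lie below. Over all genes tested those shares were 25.7% and 27.1%. The number of calls fell over all genes when a WT library was left out. Without WT 1 or WT 2 none of the 37 genes passed in edgeR with the batch term (unadjusted p was under 0.05 for 10 higher and no lower genes in both fits), and without WT 3 only Mmp11 passed. In these fits 1.97%, 0.0421% and 1.24% of all genes were called higher without WT 1, WT 2 and WT 3. Without cKO 1, in a fit that has no batch term because batch and genotype then coincide, 20 genes passed as higher and Adamts19 passed as lower, where 30.1% of all genes were called higher and 31.7% lower. In the fit with no batch term, none passed as higher when WT 1 or WT 2 was left out, 2 did when WT 3 was, 8 when cKO 2 was and 7 when cKO 3 was. The shares of all genes called higher in those 5 fits were 1.06%, 0%, 0.842%, 6.92% and 4.64%, in the order WT 1, WT 2, WT 3, cKO 2 and cKO 3.

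**Figure D2:**
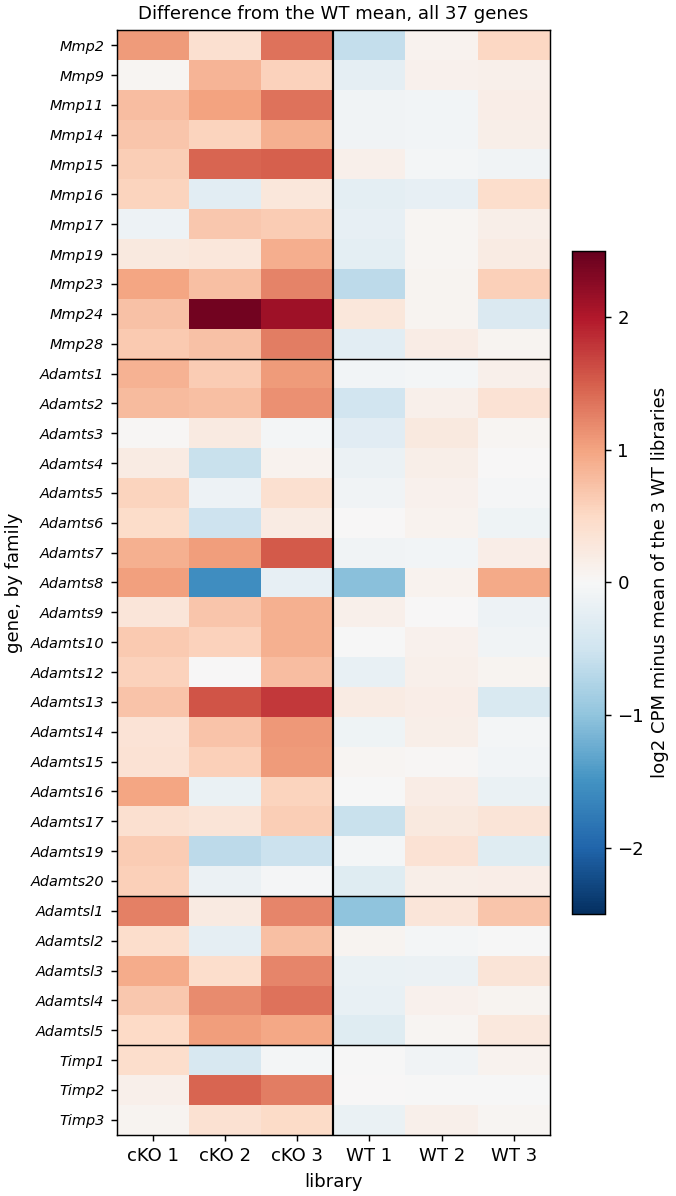
Difference of each library from the mean of the WT libraries, in log2 CPM, for the 37 genes ordered by family (Mmp, Adamts, Adamtsl, Timp from top to bottom), with cKO libraries left of WT libraries. In cKO 1, 36 of 37 genes lie above the WT mean, in cKO 2 27 and in cKO 3 32.

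Mmp14 encodes a membrane-type MMP that cuts fibrillar collagens and activates pro-MMP2. It had 8.96, 8.84 and 9.16 log2 CPM in the cKO libraries, against 8.20, 8.21 and 8.43 in WT. Each cKO library lay above each WT library, and edgeR gave a log2FC of 0.68 (SE 0.144, adjusted p = 0.0271). Mmp11 encodes stromelysin 3, a secreted MMP that furin activates inside the cell. It had 6.73, 6.97 and 7.32 log2 CPM in cKO and 5.88, 5.88 and 6.13 in WT, again without overlap, with a log2FC of 0.77 (SE 0.153, adjusted p = 0.0238 from edgeR). Mmp15 encodes another membrane-type MMP. Its values were 4.06, 4.90 and 4.94 log2 CPM in cKO and 3.58, 3.40 and 3.35 in WT, and cKO 2 and cKO 3 stood well above cKO 1. The log2FC was 0.62 with the batch term (SE 0.146, adjusted p = 0.0348 from edgeR) and 1.24 without it (adjusted p = 0.0143).

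Adamts1 encodes a protease that cuts versican and aggrecan, large proteoglycans. It had 5.81, 5.58 and 6.01 log2 CPM in cKO libraries and 4.89, 4.89 and 5.07 in WT libraries, with no overlap. Its log2FC of 0.86 had the smallest p of the 37 genes (SE 0.165, adjusted p = 0.0219 from edgeR). Adamts7, whose product cuts cartilage oligomeric matrix protein, had 5.31, 5.46 and 5.95 log2 CPM in cKO and 4.32, 4.35 and 4.57 in WT. Here too the groups lay apart, with a log2FC of 0.90 (SE 0.190, adjusted p = 0.0272 from edgeR). Adamts10 encodes a protease associated with fibrillin microfibrils. It had 6.43, 6.35 and 6.67 log2 CPM in cKO against 5.78, 5.89 and 5.69 in WT, a log2FC of 0.65 (SE 0.137, adjusted p = 0.0271 from edgeR). Adamtsl4 encodes a protein without protease activity that binds fibrillin. Its values were 3.83, 4.35 and 4.52 log2 CPM in cKO and 2.98, 3.28 and 3.24 in WT. It passed closest to the threshold (log2FC 0.66, SE 0.181, adjusted p = 0.0478 from edgeR), and in limma-trend with the batch term its adjusted p was 0.0508.

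**Figure D3:**
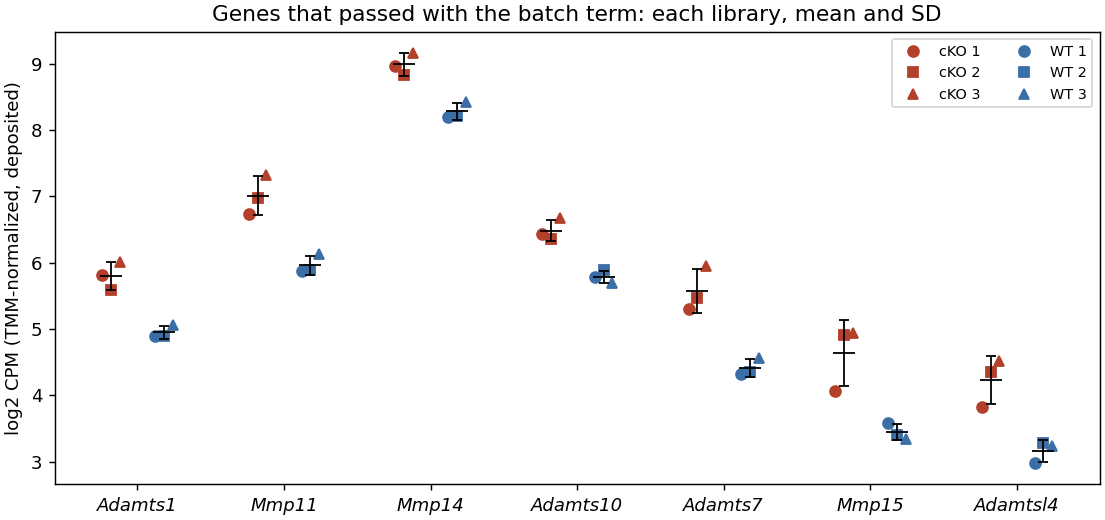
Deposited log2 CPM of the 7 genes that passed edgeR with the batch term, in order of adjusted p. Symbols are single libraries, with cKO left of WT, and bars give the mean and SD of 3 libraries. In each gene the lowest cKO library lies above the highest WT library.

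Promoter sequences of 22 of the 37 genes, among them 5 of the 7 that passed, were found in the RefSeq promoter table (build GRCm38.p6, 250 bases before to 50 after the transcription start). The 120 bases before the start are shown for these 5, since all of them rose in cKO testes. Capitals mark the letters of 3 motifs on either strand, the GC box (GGGCGG), the CCAAT box (CCAAT) and the TATA box (TATAAA), and in Mmp14 a GC box overlaps a CCAAT box read on the other strand. The windows are chr16:85803114-85803233 (- strand) for Adamts1, chr10:75932503-75932622 (- strand) for Mmp11, chr14:54431478-54431597 (+ strand) for Mmp14, chr8:95352176-95352295 (+ strand) for Mmp15 and chr3:95687918-95688037 (- strand) for Adamtsl4.
Adamts1: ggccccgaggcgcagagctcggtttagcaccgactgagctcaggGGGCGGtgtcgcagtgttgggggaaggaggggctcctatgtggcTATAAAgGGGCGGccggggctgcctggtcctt
Mmp11: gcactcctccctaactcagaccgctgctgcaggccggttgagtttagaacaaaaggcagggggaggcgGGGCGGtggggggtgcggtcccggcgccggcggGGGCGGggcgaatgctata
Mmp14: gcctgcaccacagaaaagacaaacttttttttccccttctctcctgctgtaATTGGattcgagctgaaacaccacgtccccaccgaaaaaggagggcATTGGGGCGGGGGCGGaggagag
Mmp15: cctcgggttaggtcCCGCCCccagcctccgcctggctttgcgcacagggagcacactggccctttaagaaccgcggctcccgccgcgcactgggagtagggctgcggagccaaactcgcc
Adamtsl4: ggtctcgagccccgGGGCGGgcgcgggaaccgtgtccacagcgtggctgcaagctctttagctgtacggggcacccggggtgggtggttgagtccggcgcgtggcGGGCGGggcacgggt

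A GC box, the site that Sp1-type factors are known to bind, occurred in the full promoter of 20 of the 22 genes (90.9%) and in all 5 of those shown, against 64.8% of 12933 tested genes with a promoter in the table. A CCAAT box occurred in 5 of the 22 (22.7%), among them Mmp14, against 42.8%. A TATA box occurred in 2 of the 22 (9.09%), one of them Adamts1, against 9.2%. The AP-1 site TGACTCA, known from promoters of inducible MMP genes, was found in none of the 22 promoters, against 4.54% of all tested genes. These matches describe letters in the sequence only.

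A further 9 genes passed only without the batch term, with edgeR adjusted p from 0.0223 to 0.0359 in that fit and from 0.105 to 0.377 with the term. They included Adamts2 and Adamts14, which encode proteases that remove the N-terminal propeptide of fibrillar procollagens. Adamts2 had 7.21, 7.17 and 7.57 log2 CPM in cKO and 5.93, 6.55 and 6.77 in WT, where WT 1 was the low library. The log2FC was 0.87 in that fit (edgeR adjusted p = 0.0263) and 0.76 with the term (adjusted p = 0.105). Adamts14 had 3.94, 4.32 and 4.69 log2 CPM in cKO and 3.49, 3.76 and 3.56 in WT. The third procollagen N-proteinase gene, Adamts3, had 1.63, 1.82 and 1.56 in cKO and 1.32, 1.85 and 1.65 in WT, and the groups overlapped.

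Adamts9 and Adamts15, whose products cut versican and other proteoglycans, belonged to the same group. Adamts9 had 7.08, 7.47 and 7.66 log2 CPM in cKO, against 6.90, 6.78 and 6.64 in WT. Adamts15 had 3.97, 4.20 and 4.68 in cKO, against 3.65, 3.64 and 3.54 in WT. In both genes cKO 1 was the cKO library nearest to WT, and the log2FC values were 0.65 and 0.71 without the batch term and 0.31 and 0.37 with it. Adamts13 encodes the protease that cuts von Willebrand factor. It had 1.47, 2.33 and 2.53 log2 CPM in cKO and 0.97, 0.94 and 0.39 in WT.

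Mmp24, which encodes a membrane-type MMP best known from the nervous system, had the largest difference of the 37 genes without the batch term. It had 0.01, 1.69 and 1.39 log2 CPM in cKO 1, cKO 2 and cKO 3, against -0.44, -0.65 and -1.08 in WT. The log2FC was 1.97 (SE 0.478, adjusted p = 0.0223 from edgeR), and with the batch term it was 0.75 and did not pass (adjusted p = 0.225). Its level is low, and its exons overlap those of Mmp24os1 on the opposite strand. Mmp28 encodes epilysin, a secreted MMP. It had 2.76, 2.84 and 3.40 log2 CPM in cKO and 1.85, 2.31 and 2.18 in WT. Adamtsl5, whose product binds fibrillins, had 2.43, 2.98 and 2.89 in cKO and 1.61, 1.96 and 2.19 in WT.

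None of the 3 inhibitor genes passed with the batch term in edgeR (none at an unadjusted p under 0.05), and 1 of them, Timp2, passed without it. Timp2 had 8.25, 9.57 and 9.40 log2 CPM in cKO 1, cKO 2 and cKO 3, against 8.15, 8.12 and 8.12 in WT. Its WT values were nearly equal (SD 0.02), cKO 1 lay 0.13 above their mean, and cKO 2 and cKO 3 lay 1.45 and 1.27 above it. The log2FC of Timp2 was 0.13 with the batch term (adjusted p = 0.377 from edgeR) and 1.06 without it (adjusted p = 0.0353), and without the batch term it no longer passed in edgeR once any WT library, cKO 2 or cKO 3 was omitted (adjusted p from 0.100 to 0.111) or in limma-trend (adjusted p = 0.0523). With cKO 1 omitted it passed, at a log2FC of 1.35. One exon of Timp2 overlaps an exon of Cep295nl on the same strand in the annotation, so reads there could belong to either gene. In the same libraries Mmp14 lay 0.68, 0.56 and 0.88 above its WT mean. In cKO 1 Mmp14 exceeded its WT level by more than Timp2 did, and in cKO 2 and cKO 3 Timp2 did so by more than Mmp14.

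Timp3, whose product stays bound to the matrix and also blocks ADAMTS proteases, had 7.93, 8.25 and 8.33 log2 CPM in cKO and 7.69, 7.98 and 7.91 in WT. The cKO 1 value lay within the WT range and the other cKO values above it, and the gene passed in neither model (edgeR adjusted p = 0.722 with the batch term and 0.129 without). Timp1 had 3.318, 2.47 and 2.82 log2 CPM in cKO and 2.87, 2.79 and 2.97 in WT, with cKO libraries on both sides of WT (adjusted p = 0.195 and 0.916). Timp4 was not kept by the authors, with 5, 0 and 5 counts in cKO and 3, 3 and 4 in WT. Whether the TIMP genes differ from the protease genes in their response was not tested.

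**Figure D4:**
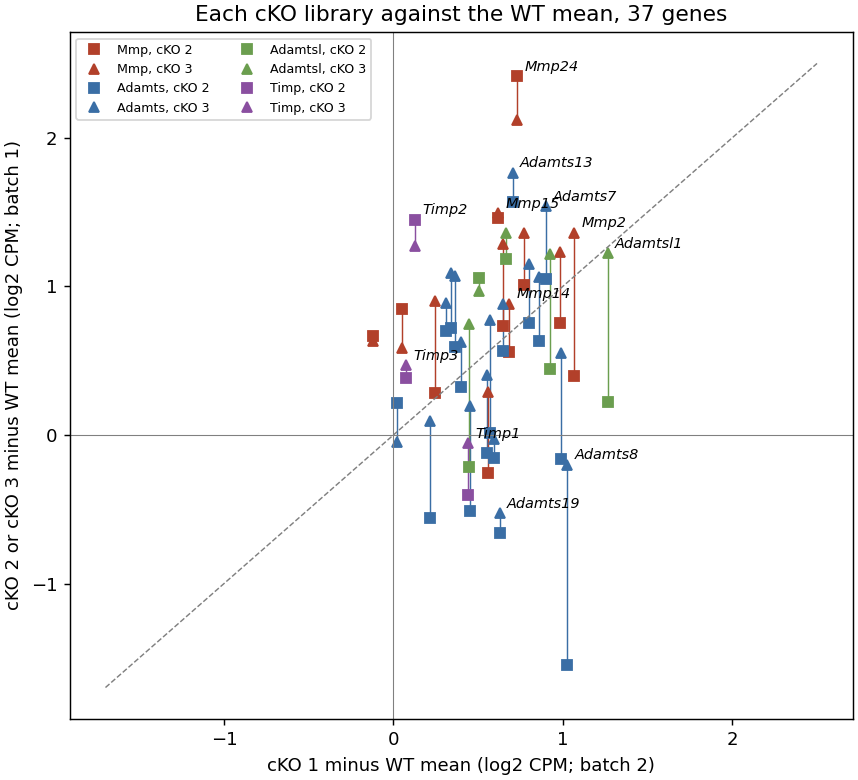
Difference from the WT mean, in log2 CPM, of cKO 1 (batch 2, x axis) against cKO 2 (squares) and cKO 3 (triangles; both batch 1, y axis) for the 37 genes, coloured by family, with a line joining the symbols of 1 gene and a dashed line of equality. Timp2 and Mmp24 lie far above the dashed line, with 0.13 against 1.45 and 1.27 for Timp2, and Adamts8 and Adamts19 lie far below it.

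In 16 of the 37 genes (43.2%) both cKO 2 and cKO 3 were above cKO 1, and in 10 (27.0%) both were below. Over all genes tested each of these shares was 41.9%. Batch and the difference between cKO mice cannot be told apart here. The summed spermatocyte and Sertoli markers of cKO 1 also lay between those of WT and those of the other cKO libraries, as did Tardbp. Adamts19 had 3.55, 2.26 and 2.39 log2 CPM in cKO and 2.86, 3.28 and 2.61 in WT, so that cKO 1 was above all WT libraries and cKO 2 and cKO 3 were below them. Adamts8 ranged from 1.24 to 3.82 in cKO and from 1.74 to 3.74 in WT, the widest spread in either group (SD 1.29 and 1.00, n = 3 each), and the gene passed in neither model (edgeR adjusted p = 0.428 with the batch term and 0.916 with none).

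Mmp2 and Mmp9 encode the gelatinases, which cut denatured collagen and type IV collagen of basement membranes. Mmp2 had 7.11, 6.44 and 7.41 log2 CPM in cKO, against 5.44, 6.13 and 6.57 in WT. WT 3 exceeded cKO 2, and the log2FC of 1.00 did not pass (SE 0.429, adjusted p = 0.145 from edgeR). It was 0.92 without the batch term (adjusted p = 0.0618). Mmp9 had 1.48, 2.28 and 2.01 log2 CPM in cKO and 1.2, 1.53 and 1.55 in WT, with the value of cKO 1 inside the WT range. Mmp23, which encodes an MMP anchored by its N-terminus, had 4.37, 4.14 and 4.62 in cKO and 2.73, 3.45 and 3.98 in WT. It lay apart without passing (log2FC 0.90, adjusted p = 0.155 from edgeR). Adamtsl3 also lay apart, with 0.55, 0.07 and 0.85 log2 CPM in cKO and -0.54, -0.52 and -0.05 in WT, a log2FC of 0.96 (adjusted p = 0.175 from edgeR).

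In all, 21 of the 37 genes passed in neither model, and 4 of them lay apart between the groups. Their log2FC values with the batch term ran from -0.13 for Mmp17, which encodes a membrane-type MMP held by a glycolipid anchor, to 1.12 for Adamtsl1. Mmp17, the only gene of the 37 with a value below 0, had 2.99, 3.78 and 3.75 log2 CPM in cKO and 2.91, 3.16 and 3.27 in WT, and its value without the batch term was 0.43. The aggrecanase genes Adamts4 and Adamts5 overlapped between the groups, with 2.49 to 3.27 log2 CPM in cKO and 2.91 to 3.19 in WT for Adamts4, and with 7.57 to 8.24 in cKO and 7.61 to 7.81 in WT for Adamts5. Adamts5 in cKO 1 was above WT, with a log2FC of 0.55 (SE 0.182, edgeR adjusted p = 0.0798), while cKO 2 was below every WT library. It passed as higher in 5 of 22 settings, among them DESeq2 (adjusted p = 0.0198). All 5 rest on the comparison of cKO 1 with WT, as does the log2FC of 0.56 in the batch 2 libraries alone. Without the batch term the log2FC of Adamts5 was 0.30 (edgeR adjusted p = 0.220). Of the 14 symbols that the authors did not keep, 13 had at most 14 counts in any library, and 3 had none. Mmp7 reached 55 counts in WT 2 and 0 to 9 counts in every other library.

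Levels of different genes were compared as CPM per kb of merged exons of GENCODE vM39. The highest of the 37 genes in WT was Timp2, with 68.3, 171 and 151 CPM per kb in cKO 1, cKO 2 and cKO 3 and 62.5 ± 0.72 in WT (SD, n = 3). Mmp14 followed with 80.9, 74.0 and 92.9 in cKO and 50.5 ± 4.57 in WT, and Timp3 came next with 29.9, 37.2 and 39.4 in cKO and 28.6 ± 2.90 in WT. Mmp2, Adamts5 and Mmp11 had WT levels of 19.6 ± 7.30, 19.0 ± 1.38 and 17.7 ± 1.79 CPM per kb, so that their order in WT lay within the spread between mice. Their cKO levels were 24.6 to 48.0 for Mmp2, 17.4 to 27.7 for Adamts5 and 30.2 to 45.2 for Mmp11. Adamts2, at 15.2 to 20.0 in cKO and 9.26 ± 2.60 in WT, was the highest of the procollagen N-proteinase genes.

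**Figure D5:**
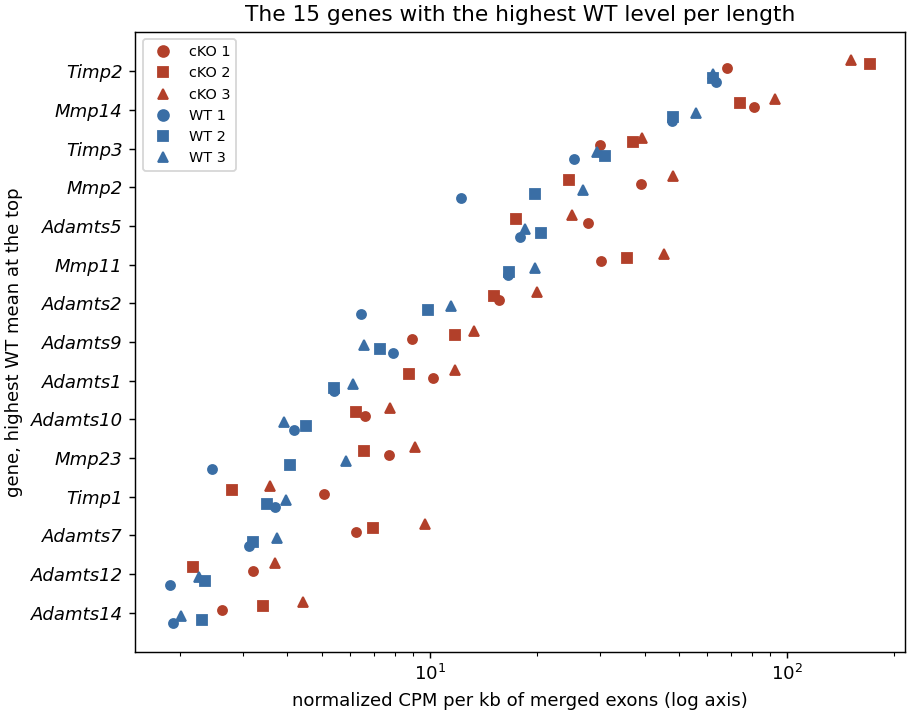
Normalized CPM per kb of merged exons (log axis) of the 15 genes with the highest WT mean, in order of that mean, with cKO libraries above WT libraries in each row. Timp2 is at 68.3 to 171 in cKO and Mmp14 at 74.0 to 92.9, both above all WT libraries.

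Genes that act with these proteases were counted in the same fit. Of 11 related metalloprotease genes tested, out of 14 listed, 5 rose and 1 fell (median log2FC 0.72). The 5 were Bmp1, whose product removes the C-terminal propeptide of fibrillar procollagens, its relative Tll2, and Adam12, Adam19 and Adam33, which encode cell surface proteases. Bmp1 had 7.41, 7.07 and 7.54 log2 CPM in cKO and 6.44, 6.51 and 6.53 in WT (log2FC 0.92, SE 0.160, adjusted p = 0.0192 from edgeR), and it lay further apart than its WT spread. Adam12 had 6.09, 6.25 and 6.84 in cKO and 5.23, 5.25 and 5.13 in WT. Adam15 was the gene that fell, with a log2FC of -0.37 (adjusted p = 0.0469), and its values were 5.06, 5.56 and 5.51 log2 CPM in cKO and 5.45, 5.44 and 5.40 in WT, so that only cKO 1 was below WT. Its log2FC was -0.035 in the fit with no batch term (adjusted p = 0.872), which called 4 of the 11 genes higher and none lower by edgeR. Adam33 did not pass in that fit (edgeR adjusted p = 0.0588), and with the batch term its adjusted p was 0.0490.

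Of 23 genes for matrix substrates, 5 rose and none fell in edgeR (median log2FC 0.54), with 1 gene, Ncan, lower at an unadjusted p under 0.05. The 5 were Bcan, which encodes the proteoglycan brevican, Col4a2 and Hspg2 of basement membranes, and the fibrillin genes Fbn1 and Fbn2. Bcan had 6.77, 7.28 and 7.45 log2 CPM in cKO and 5.38, 5.44 and 5.92 in WT, a log2FC of 1.17 (SE 0.196, adjusted p = 0.018 from edgeR). Of 10 genes tested for the activation of MMPs, none passed with the batch term by edgeR, and at an unadjusted p under 0.05 3 were higher and 4 lower. Furin, the convertase that activates Mmp11 and membrane-type MMPs, had 7.65, 8.83 and 8.78 log2 CPM in cKO and 7.38, 7.29 and 7.48 in WT, and passed only without the batch term (log2FC 1.12, adjusted p = 0.0258). Of 6 genes tested from a list of other inhibitors, which holds the testican genes as a family, 1 rose and none fell with the batch term by edgeR, and none was lower at an unadjusted p under 0.05. The gene that rose was Spock2, whose product testican-2 is known to relieve the inhibition of membrane-type MMPs by other testicans, not to inhibit them. It was at 1022, 1720 and 1716 CPM in cKO and 771, 719.6 and 794 in WT (log2FC 0.42, adjusted p = 0.0265 from edgeR). Reck, a membrane-bound inhibitor of MMPs, had 5.79, 6.08 and 6.05 log2 CPM in cKO and 5.45, 5.65 and 5.67 in WT, which did not pass (adjusted p = 0.256). The fit with no batch term called 10 matrix substrate genes higher and 1 lower, 3 activator genes higher and none lower, and from the list of other inhibitors Spock2 higher and Spock1 lower. Spock1, which encodes a testican that inhibits membrane-type MMPs, had 0.13, -0.40 and -0.10 log2 CPM in cKO and 0.94, 0.77 and 1.15 in WT (log2FC -0.85, adjusted p = 0.154 with the batch term from edgeR, and -1.11, adjusted p = 0.0248 with none).

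TDP-43, the product of Tardbp, is known to bind UG-rich RNA. Tracts of at least 6 TG units on the strand that reads as the RNA were therefore counted in the GRCm39 sequence of each gene from start to end. They occurred in 29 of the 37 genes (78.4%), against 71.5% of 15637 tested genes found by symbol, and in 4 of the 7 genes that passed. The 37 genes are longer, with a median of 43222 bases against 25510, and among genes whose length fell in the middle 50% of their range the shares were 89.5% of 19 and 92.1% of 8834. The density was 9.72 tracts per 100 kb in the 37 genes and 10.6 in all. Neither the share among those 19 genes nor the density over the 37 was above that of the genes they were set against. The 7 genes that passed had a median length of 13944 bases, and their share was not compared at matched length. Binding of TDP-43 to these RNAs was not tested. The longest tracts of Adamts7, at chr9:90065950-90065999 (+ strand), and of Mmp14, at chr14:54672704-54672723 (+ strand), both in introns, are shown as the extremes of length among the genes that passed and hold one, with the tract in capitals.
Adamts7: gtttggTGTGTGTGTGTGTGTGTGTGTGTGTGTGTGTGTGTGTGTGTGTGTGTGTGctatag
Mmp14: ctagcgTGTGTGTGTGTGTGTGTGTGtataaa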

How the data were processed

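RNA-Seq libraries of whole PND12 testes from 3 cKO and 3 WT mice were analyzed. With Salmon 1.2.0 on the NCBI mouse transcriptome (GRCm39 as decoy) and tximport, the authors obtained an estimated count of each gene (an expected count), and the deposited log2 values are TMM-normalized log2 CPM that the authors computed for the genes they kept. The submitters' processing notes also name bcl2fastq 2.20, edgeR 3.32.1 and limma 3.46.0. How strand was set in the counting is not given in the sources used here. Exons of 19 of the 37 genes overlap another gene on the opposite strand, and reads of such pairs may be shared if strand was not used.

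Expected counts were rounded, and 16632 genes with at least 0.5 CPM in at least 3 libraries were tested in edgeR 4.0.16 (R 4.3.3) by the quasi-likelihood test with TMM normalization, batch and genotype, at a Benjamini-Hochberg adjusted p of 0.05 over all of them. Standard errors were taken from the fold change and the F statistic. The fit was also run on simulated data as a check of the code, and no result given here rests on that run. Alternatives were a fit without batch, batch 2 libraries alone, limma-trend (limma 3.58.1), DESeq2 1.42.0, RLE size factors, other filters, a replicate block and leaving out each library. The genes and the 12 lists of pathway and cell type genes were chosen with earlier results of these data known. Values per library are given for genes called in either model, for TIMP genes, and for the 2 largest differences that lay apart. Other genes are named after their values were seen, including Mmp2, Mmp9, Mmp17, Adamts3, Adamts8, Adamts19 and Adamtsl1. Gene positions and exons come from GENCODE vM39, in which 94.02% of tested genes and all 37 genes were found by symbol. Python 3.11.15 and matplotlib 3.10.9 were used for sequences and figures.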

Additional observations from a re-analysis of the deposited data

How the results depend on the processing

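With the batch term, 7 of the 37 genes were higher and 0 lower. There were 16 higher genes without it, with a replicate block and no batch term, and in limma-trend without it. Leaving out 1 library gave 0 to 20 higher and 0 to 1 lower genes. From the main model 0 were higher without WT 1, 0 without WT 2 and 1 without WT 3. The fit without cKO 1 holds no batch term and gave 20 higher genes. Without the batch term 0, 0, 2, 8 and 7 genes were higher when WT 1, WT 2, WT 3, cKO 2 and cKO 3 were left out. Over all genes 1150 were higher and 1537 lower with the batch term, 2841 and 2783 without it, 638 and 579 with the block and the batch term, 7 and 5 without WT 2, and 5009 and 5277 without cKO 1. In the 7 genes every cKO library lay above every WT library, so leaving out a library could not change their direction. It was the same in all 21 alternatives. Several of these, such as the fits with the batch term without cKO 2 or cKO 3, repeat the comparison of cKO 1 with WT. Unadjusted p of the 7 was under 0.05 throughout, except for 1 of them in the replicate block with the batch term. Fits that left out a library without the batch term, and limma-trend without it, were chosen after seeing the data. Replicate numbers did not pair the libraries (correlations of same-numbered deviations -0.0945, -0.0649 and 0.0052). With the block and the batch term 9 genes passed, of which 4 were among the 7. Adamts8, at 2.10 (edgeR adjusted p = 0.0172), passed in that fit and in none of the other 21 settings.

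Of 777 values of single genes, 41 in 11 genes reversed, 2 of them past the threshold, and the cause was not tested. Without the batch term the log2FC was -0.093 for Adamts19, -0.051 for Adamts4, -0.10 for Adamts8 and 0.43 for Mmp17. With a replicate block and no batch term it was -0.19 for Adamts19, -0.081 for Adamts4, -0.34 for Adamts8, 0.40 for Mmp17 and -0.0037 for Timp1, and with the block and the batch term 0.082 for Mmp17. In limma-trend without the batch term it was -0.19 for Adamts19, -0.084 for Adamts4, -0.24 for Adamts8, 0.39 for Mmp17 and -0.0060 for Timp1. Libraries were left out of the main model 1 at a time, except that the fit without cKO 1 holds no batch term. That fit gave the lowest value below for Adamts19, Adamts20, Adamts4, Adamts6 and Adamts8, and the highest for Mmp17. Leaving out 1 library in this way gave -0.64 to 0.81 for Adamts19, -0.13 to 0.68 for Adamts20, -0.12 to 0.14 for Adamts3, -0.22 to 0.28 for Adamts4, -0.14 to 0.50 for Adamts6, -0.96 to 1.41 for Adamts8, -0.0063 to 0.79 for Mmp16, -0.22 to 0.63 for Mmp17, -0.062 to 0.71 for Mmp9, -0.24 to 0.49 for Timp1 and -0.011 to 0.40 for Timp3. Doing so without the batch term gave -0.13 (without WT 1) and -0.24 (without WT 3) for Adamts19, -0.074 (without WT 1) and -0.023 (without cKO 2) for Adamts3, -0.12, -0.053 and -0.13 for Adamts4 (without WT 1, WT 3 and cKO 3), -0.47 and -0.16 for Adamts8 (without WT 1 and WT 2), -0.0066 for Timp1 (without WT 2), and 0.34, 0.45, 0.51, 0.30 and 0.32 for Mmp17 (without WT 1, WT 2, WT 3, cKO 2 and cKO 3). The 2 past the threshold were Adamts19 at -0.64 (adjusted p = 0.045 from edgeR) and Mmp17 at 0.63 (adjusted p = 0.0094), both without cKO 1. The limits are batch 1, which holds no WT library, the number of mice, and low counts in genes such as Mmp24, Adamtsl3, Adamts16 and Adamts20.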
